A study of Mus musculus with 6 samples.

Results

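Potassium channel genes were examined in hearts of sham and tail-suspended mice. All non-control probes whose gene name on the array began with Kcn, further letters and a number were taken, which gave 94 genes read by 136 probes, out of 21938 gene names on the array that matched RefSeq. Each gene was read from its probe with the highest mean log2 processed intensity over the 6 arrays, called its first probe below. Tail-suspension holds the hindlimbs off the floor and serves as a ground model of weightlessness. The tail-suspended group held 3 male C57BL/6 mice suspended for 28 days from an age of 10 weeks, and the sham group held 3 male C57BL/6 mice that were not suspended and were housed and fed alike. The labels also give 11 weeks as the age of every animal, and the study's methods state a further age. Which of these is right was not settled. The labels name no allele or drug for either group. Total RNA of cardiac muscle was labelled with Cy3, a fluorescent dye, and each mouse had 1 array.

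Potassium channels carry the outward current that ends the cardiac action potential and holds the resting potential of heart muscle cells. Voltage-gated pore subunits open on depolarisation, inward rectifiers set the resting potential and include the channels gated by acetylcholine and by ATP, tandem-pore subunits pass background current, and a further group opens with intracellular calcium or sodium. Silent subunits join voltage-gated pores without forming a channel of their own, and auxiliary subunits change the gating or trafficking of the pores.

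The 6 arrays shared 1 slide and 1 scan, and between 50.9% and 53.4% of the probes on an array were well above background. Agilent Feature Extraction writes a processed intensity for each spot after background correction. Levels are given below as scaled intensity, the processed intensity multiplied so that the 75th percentile of each array is 100, and they are compared between arrays but not between probes. Only probes well above background throughout 1 group or both were tested. Fold changes are log2 differences of tail-suspended minus sham from limma, with p-values adjusted by Benjamini-Hochberg over all 28032 tested probes and a threshold of 0.05. Precision is limited by the number of arrays. The smallest two-sided p of an exact permutation test over 3 arrays per group is 0.1. On the slide, row 1 held the sham arrays with tail-suspended array 1, and row 2 held tail-suspended arrays 2 and 3. All 8 ventricular myocyte markers were well above background on every array, as were 4 of 7 atrial markers (Nppa, Myl4, Stard10 and Dkk3). The other atrial markers were Myl7 and Sln, well above background on 1 array of each group, and Bmp10, on none. The tissue was bulk heart, so fewer cells of a type and less RNA per cell cannot be told apart.

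Of the 94 genes, 40 were well above background on all 6 arrays, 21 on some and 33 on none. The share on all 6 arrays was 42.6% among potassium channel genes and 62% among all gene names, and the share on none was 35.1% and 29.8%. Voltage-gated pore subunits were the most widely detected group with several members, with 16 of 30 on all 6 arrays, followed by inward rectifiers with 7 of 15 and auxiliary subunits with 7 of 16. Channels activated by calcium, sodium or pH had 3 of 8, tandem-pore subunits 4 of 14 and silent subunits 2 of 10. Kcnq1ot1, an antisense non-coding RNA at the Kcnq1 locus that met the naming rule, was on all 6. Genes on no array included Kcne1 and Kcne2, auxiliary subunits of Kcnq1 and Kcnh2 channels, and Kcnab2, a cytoplasmic auxiliary subunit of Shaker-type channels. Only a bound on the level is known for these.

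**Figure D1:**
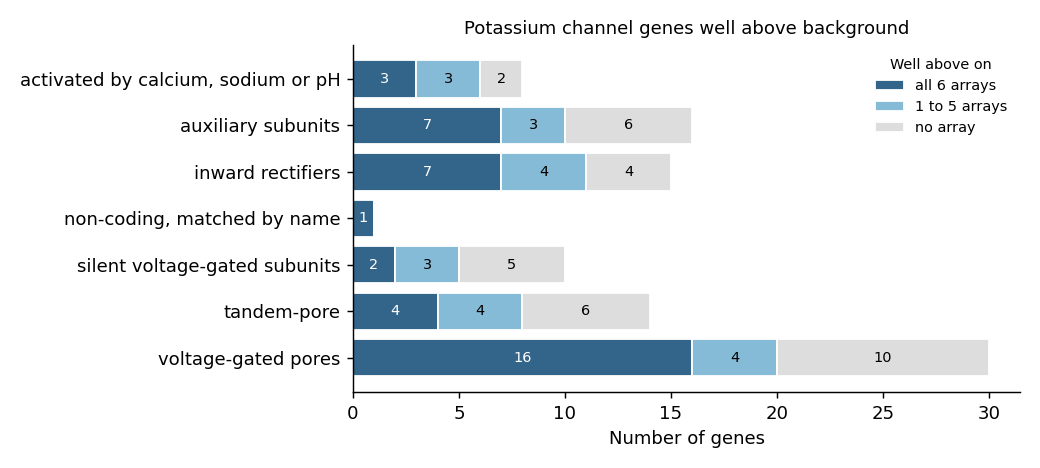
Number of potassium channel genes by family (horizontal bars) whose brightest probe was well above background on all 6 arrays, on 1 to 5 arrays or on none. Voltage-gated pores had 16 of 30 genes on all 6 arrays and silent voltage-gated subunits 2 of 10.

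The probe filter left 45 genes to test and 49 untested. Of the tested genes, 1 was higher and 5 were lower in tail-suspended hearts (limma, adjusted p under 0.05). Kcnt1 was the higher gene, and Kcnj15, Kcnj8, Kcnn2 and Kcna7 were among the lower genes. The called share was 13.3%, against 21.7% of all 14197 tested genes, of which 10.5% were higher and 11.2% lower. At least 2-fold were 3 of the called members, among them Kcnt1 and Kcnj15, against a background of 4.63%. The 3 arrays of one group lay entirely above or below those of the other in 16 of 45 members, in 5 with tail-suspended above and in 11 below, against 47.6% of all tested genes (21.9% above and 25.7% below). The median log2 fold change was -0.03 over the 45 members and -0.03 over all tested genes. With slide row as a block, no member passed the threshold. Row 2 held no sham array, so the estimate of that fit is the difference within row 1, tail-suspended array 1 alone against the sham arrays. It was 1.06 for Kcnt1, -0.99 for Kcnj15, -0.37 for Kcnj8, -0.36 for Kcnn2 and -0.46 for Kcna7. The groups of the 6 called genes did not overlap, so their direction could not turn in that fit and adds no support.

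**Figure D2:**
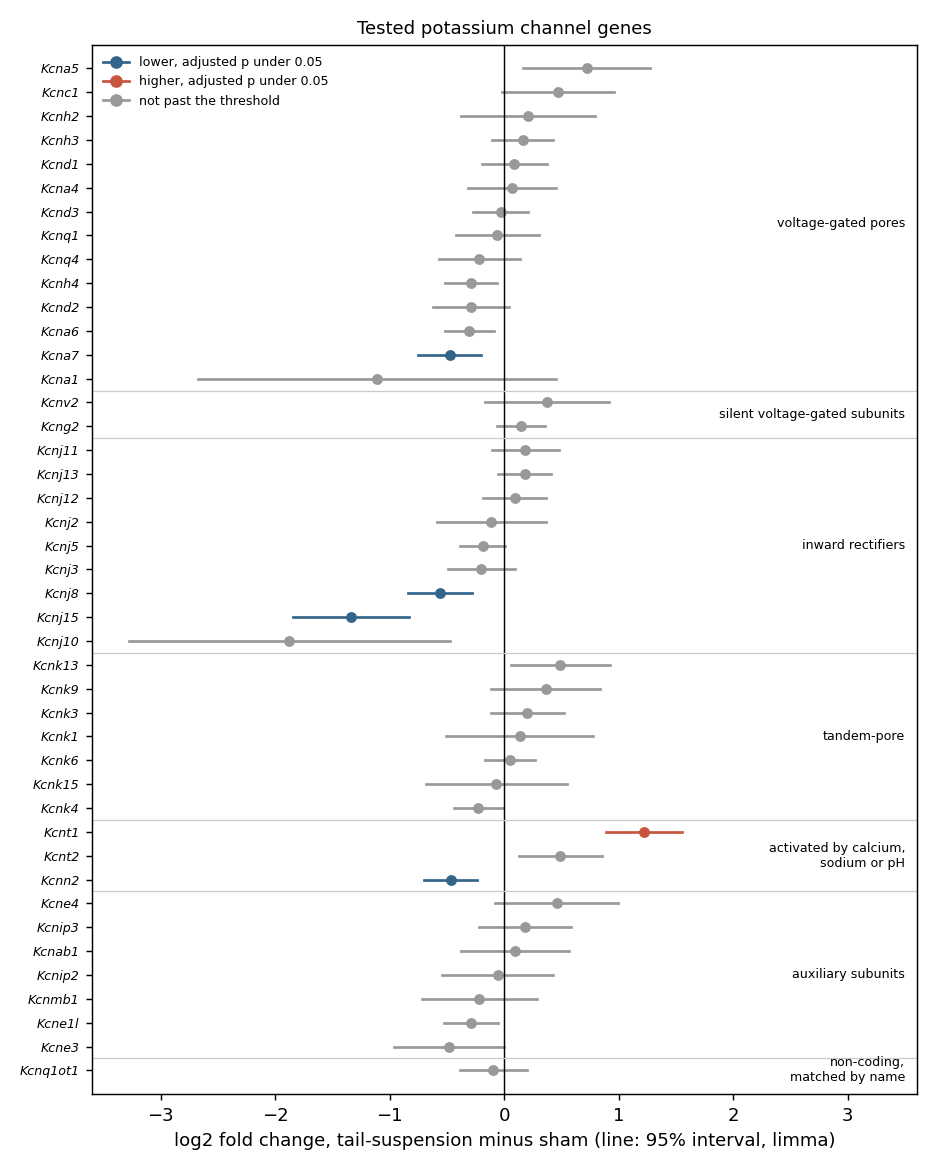
Log2 fold change of tail-suspended minus sham (horizontal axis) with its 95% interval from limma for 43 of the tested potassium channel genes, ordered by family and then by value. Coloured points passed an adjusted p of 0.05: Kcnt1 at 1.22 to the right, and Kcnj15, Kcnj8, Kcnn2 and Kcna7 to the left of 0.

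Kcna7 and Kcna5, genes of voltage-gated pores, were each read by a pair of tested probes, and the first 30 of the 60 bases of these probes are shown because the pairs bear on how each gene was called. Coordinates are those of the array file on mm9, 5′ to 3′ on the strand of the gene. The stretches of Kcna7 lie at chr7:52666474-52666503 and chr7:52664902-52664931 on the plus strand, and those of Kcna5 at chr6:126482603-126482632 and chr6:126483403-126483432 on the minus strand. All lie in the transcripts the file names, at distances of 1572 bases between the Kcna7 probes and 800 bases between the Kcna5 probes. Whether a probe lies in coding sequence was not analysed here.
Kcna7, first probe: gtcagcatcccttagagccaaggaaggtca
Kcna7, other probe: aggtgtgctcaccatctctctgcctgtgcc
Kcna5, first probe: ggcttttgagaattcattcttttcattttg
Kcna5, other probe: gacctgcgaaggtctctgtatgccctctgt

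Kcna7 encodes a Shaker-type voltage-gated pore known from skeletal muscle and heart. On its first probe the scaled intensity was 543, 505 and 446 in sham and 362, 387 and 323 in tail-suspended hearts, without overlap. The difference was -0.48 (standard error 0.115, adjusted p = 0.0333 by limma). The other Kcna7 probe, which starts nearer to the 5′ end of the transcript, read 91, 89.6 and 120 in sham and 99.2, 108 and 101 in tail-suspended hearts. Those groups overlapped, with a log2 fold change of 0.05 (95% interval -0.26 to 0.37, adjusted p = 0.794 by limma). The fall of Kcna7 was thus read by 1 of its 2 tested probes, and the mean of both was -0.21 (adjusted p = 0.122 by limma). With 1 array left out the first probe stayed past the threshold without sham array 3 and without tail-suspended array 2, and missed it in the other 4 fits, with adjusted p up to 0.109 (limma).

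Kcna5 encodes the pore of the ultra-rapid delayed rectifier. Its first probe read 75.6, 77.8 and 138 in sham and 162, 147 and 152 in tail-suspended hearts. The groups did not overlap, but sham array 3 lay near the tail-suspended arrays and far from the other sham arrays. The log2 fold change was 0.72 (95% interval 0.16 to 1.28, adjusted p = 0.0715 by limma), and without sham array 3 it was 1.00 (adjusted p = 0.0109 by limma). No other fit with 1 array left out passed the threshold, and adjusted p reached 0.2 (limma). The other Kcna5 probe showed the same order, with 44.3, 40.3 and 73.2 in sham and 89.2, 90 and 86.2 in tail-suspended hearts. Its log2 fold change of 0.80 passed the threshold (adjusted p = 0.0471 by limma). With 1 array left out it passed only without sham array 3, and adjusted p reached 0.134 (limma) in the other fits. Sham array 3 also stood apart in clock genes: Per1, a repressor of the circadian clock, read 815, 958 and 2457 in sham and 3209, 4986 and 4791 in tail-suspended hearts. Of 11 clock genes tested, 3 were higher (Per1, Per2 and Cry2) and none was lower, a called share of 27.3% against 21.7% of all tested genes. Their part in the Kcna5 values was not tested.

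**Figure D3:**
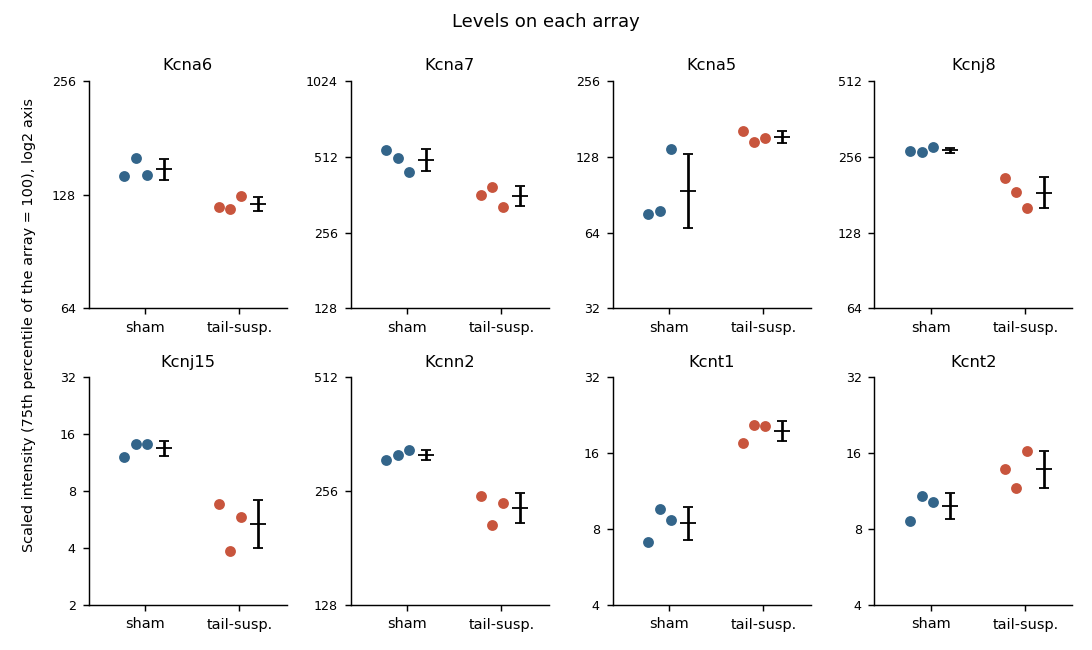
Scaled intensity on each array (points; log2 axis, 75th percentile of the array equal to 100) of 8 potassium channel genes in sham and tail-suspended hearts, with the geometric mean and the SD on the log2 scale as bars, n = 3 per group. The groups are separate in all 8 panels, since all 8 genes are among the 16 of 45 tested members with separate groups, against 47.6% of all tested genes. In Kcna5, sham array 3 at 138 lies close to the tail-suspended arrays.

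The transient outward current, which gives the early notch of repolarisation, is carried by Kcnd2, Kcnd3 and Kcna4 pores, and none of the 3 passed the threshold. Kcnd2 read 242, 183 and 239 in sham and 163, 191 and 186 in tail-suspended hearts. These groups overlapped, with a log2 fold change of -0.29 (95% interval -0.62 to 0.04, adjusted p = 0.172 by limma). Kcnd3 overlapped as well, at 434 to 481 in sham and 418 to 494 in tail-suspended hearts, with an interval of the log2 fold change from -0.27 to 0.21. Kcna4, the slower of the transient pores, read 453 to 604 and 444 to 578, with an interval from -0.31 to 0.45. Kcnip2, the calcium-binding auxiliary subunit of Kcnd channels, read 291, 304 and 223 in sham and 230, 343 and 222 in tail-suspended hearts. Its log2 fold change was -0.06 (95% interval -0.54 to 0.43, adjusted p = 0.859 by limma).

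Of the pores of the delayed and sustained currents, Kcna2 was well above background on 2 arrays of each group and was not tested. Kcnq1, the pore of the slow delayed rectifier, read 979, 789 and 912 in sham and 1012, 722 and 851 in tail-suspended hearts, and its interval was -0.42 to 0.30. Kcnh2, the pore of the rapid delayed rectifier, read 238 to 323 and 231 to 434, with an interval of -0.38 to 0.80. Kcnk3, an acid-sensitive background channel, read 3831, 3386 and 2905 in sham and 4317, 3583 and 3693 in tail-suspended hearts. Its log2 fold change was 0.20 (95% interval -0.12 to 0.52, adjusted p = 0.313 by limma). Kcnc1, a fast voltage-gated pore best known from neurons, overlapped between groups at 8.94 to 15.1 and 14.7 to 19, with a log2 fold change of 0.47 (adjusted p = 0.146 by limma). Changes within the 95% intervals were not excluded with 3 arrays per group.

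Kcna6 and Kcnh4, a further pair of voltage-gated pores, lay below sham on every tail-suspended array by their first probes without passing the threshold. Kcna6 read 144, 160 and 144 in sham and 119, 117 and 127 in tail-suspended hearts, with a log2 fold change of -0.30 (adjusted p = 0.0559 by limma). The other tested Kcna6 probe read 36.1, 99.4 and 98.1 in sham and 99.9, 45.1 and 26 in tail-suspended hearts. Those groups overlapped, with a log2 fold change of -0.53 (adjusted p = 0.539 by limma). Kcnh4 read 45, 44 and 47.8 in sham and 40.2, 34.3 and 37.6 in tail-suspended hearts, with a log2 fold change of -0.29 (adjusted p = 0.0736 by limma). Kcna1, a Shaker-type pore of nerve fibres, varied widely within groups. It read 30, 114 and 90.6 in sham and 61.5, 33.4 and 14.9 in tail-suspended hearts, and these groups overlapped. Its log2 fold change was -1.11, with an interval from -2.67 to 0.45. S100b, a marker of glial cells, read 38.2, 81.1 and 68.2 in sham and 62.3, 28.6 and 19.8 in tail-suspended hearts, and Sox10, a transcription factor of glial cells, read 33.8, 65.3 and 54.1 and 52.3, 38.2 and 23.9. The order of the arrays within each group was the same for all 3 of these genes. Of 7 glial and neuronal markers tested, Prph (well above background on no sham array) was higher and Dbh lower, a called share of 28.6% against 21.7% of all tested genes. The summed scaled intensity of the list was 781 to 1103 in sham and 334 to 544 in tail-suspended hearts, and its part in Kcna1 was not tested.

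Among inward rectifiers 2 of 9 tested genes, Kcnj15 and Kcnj8, were lower and none was higher. The called share of 22.2% lay near the 21.7% of all tested genes. Probe stretches are shown for these and for Kcnj14, whose probes differed in detection. They lie on mm9 at chr16:95521158-95521187 on the plus strand for Kcnj15, at chr6:142513517-142513546 on the minus strand for Kcnj8, and at chr7:53073219-53073248 and chr7:53072277-53072306 on the minus strand for Kcnj14.
Kcnj15: cataatgcctccacgacatgagcccctcta
Kcnj8: cacgggtcatcatgaatatgttcaaatcta
Kcnj14, first probe: attgaacatatgaggtcccagggacaccag
Kcnj14, other probe: ggtgaattttgtttttgtttgaagtgccat

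Kcnj8 encodes the pore of the ATP-sensitive potassium channel of vascular smooth muscle and pericytes. It read 271, 267 and 279 in sham and 211, 186 and 160 in tail-suspended hearts. The sham arrays lay close together and every tail-suspended array lay below them. The sham hearts had a log2 level of 1.44 ± 0.03 (SD, n = 3) and the tail-suspended hearts one of 0.88 ± 0.20 (SD, n = 3), a difference of -0.56 (standard error 0.118, adjusted p = 0.0234 by limma), or 1.47-fold lower. With 1 array left out it stayed past the threshold without tail-suspended array 1 and without tail-suspended array 2, and missed it in the other 4 fits (adjusted p up to 0.0771 by limma). Of 8 smooth muscle and pericyte markers tested, none passed the threshold in either direction. Their summed scaled intensity was 6825 to 9113 in sham and 8168 to 11053 in tail-suspended hearts. Of 6 endothelial markers, 3 were lower (Kdr, Tie1 and Emcn), a called share of 50% against 21.7% of all tested genes, of which 11.2% were lower. The summed scaled intensity of the list was 4142 to 4421 in sham and 3054 to 3440 in tail-suspended hearts. The part of either cell type in Kcnj8 was not tested.

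Kcnj11 encodes the pore of the ATP-sensitive channel of heart muscle cells and did not pass the threshold. It read 476, 452 and 398 in sham and 551, 516 and 441 in tail-suspended hearts, which overlapped. The log2 fold change was 0.19 (95% interval -0.10 to 0.47, adjusted p = 0.304 by limma). The other probe of the gene gave -0.47 (adjusted p = 0.165 by limma). Sulfonylurea receptors complete these channels. Abcc8, the form known from pancreatic beta cells and atria, read 2364, 2518 and 2714 in sham and 3781, 3200 and 3757 in tail-suspended hearts. It was higher on every tail-suspended array, with a log2 difference of 0.50 (standard error 0.107, adjusted p = 0.0246 by limma). Abcc9, the form known from ventricle and vessels, overlapped, with a log2 fold change of -0.14 (adjusted p = 0.351 by limma).

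**Figure D4:**
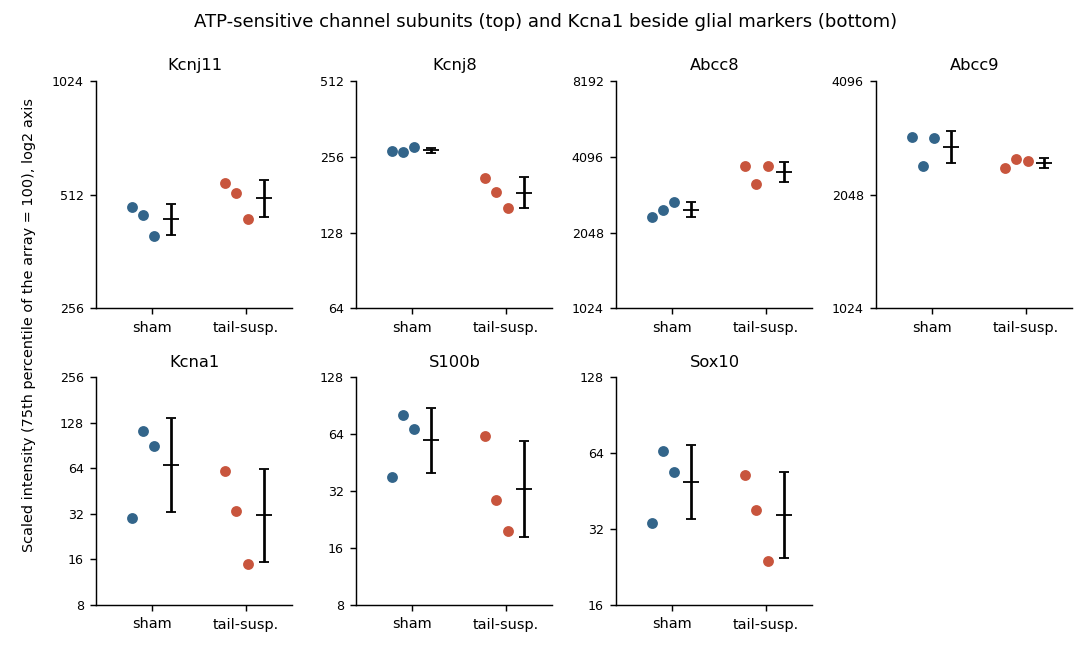
Scaled intensity on each array (points; log2 axis) with the geometric mean and the SD on the log2 scale as bars, n = 3 per group, for the pore and receptor genes of ATP-sensitive channels (top) and for Kcna1 beside the glial markers S100b and Sox10 (bottom). Kcnj8 is separate and lower and Abcc8 separate and higher in tail-suspended hearts, while the groups overlap in the other 5 panels.

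Kcnj15 encodes an inward rectifier known mainly from epithelia. Its signal was dim, at 12.2, 14.2 and 14.2 in sham and 6.82, 3.86 and 5.8 in tail-suspended hearts, and 2 of the tail-suspended arrays were well above background. All tail-suspended values lay below all sham values. The log2 difference was -1.34 (standard error 0.211, adjusted p = 0.0107 by limma). The other Kcnj15 probe was well above background on no array. Kcnj15 kept its call with each array left out (adjusted p 0.00674 to 0.0469 by limma). It entered the test through the sham arrays alone, also in these fits, so its p-values add no support to the difference. With the normexp background correction, which compresses dim signals, the log2 difference was -0.62 (adjusted p = 0.00733 by limma). The call was lost within row 1, at -0.99 (adjusted p = 0.116 by limma), and under the methods' t-test with Benjamini-Hochberg adjustment (adjusted p = 0.0552), and the probe was not tested where all 6 arrays had to be well above background.

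The classical inward rectifier current of the ventricle runs through Kcnj2, Kcnj12, Kcnj4 and Kcnj14 pores. Kcnj2 overlapped between groups, at 17.4 to 28.7 in sham and 21.3 to 23.6 in tail-suspended hearts, with an interval of the log2 fold change from -0.59 to 0.36. Kcnj12 overlapped as well, at 286 to 363 and 347 to 363, with an interval from -0.18 to 0.36. Kcnj4 was well above background on 2 arrays of each group and was not tested. Kcnj14 was read by 2 probes that start 939 bases apart in the transcript. The first was well above background on 2 sham arrays and on no tail-suspended array, read 10.1, 7.68 and 4.84 in sham, and was not tested. On the other probe all 3 sham arrays were well above background, at 13, 12.6 and 9.16, and no tail-suspended array was, at 1.48, 1.11 and 2.09. Against the lowest signal well above background on each tail-suspended array, Kcnj14 was at least 2.49-fold lower by this probe (adjusted p = 0.00235 by limma). By the first probe the value was 1.57-fold, which is no firm bound because its sham mean includes an array not well above background. The other probe entered the test through the sham arrays alone, so its p-value adds no support to the difference. With the normexp correction its log2 fold change was -0.84, a smaller change than the bound.

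Kcnj3 and Kcnj5 form the acetylcholine-gated channel that slows the heart under vagal tone. Kcnj5 read 2203, 2083 and 2092 in sham and 1842, 1947 and 1806 in tail-suspended hearts. The groups were separate, but the log2 fold change of -0.19 did not pass the threshold (95% interval -0.38 to 0.01, adjusted p = 0.14 by limma). Kcnj3 overlapped on its first probe, at 60.1 to 62.6 in sham and 48.2 to 63.5 in tail-suspended hearts, with a log2 fold change of -0.20 (adjusted p = 0.276 by limma). On its other probe the groups were separate, with -0.42 (adjusted p = 0.0576 by limma). Both subunits are richest in atria. The atrial marker Myl4, well above background on every array, read 213, 308 and 379 in sham and 290, 126 and 184 in tail-suspended hearts, and Myl7, another, was near background at 2.08, 2.56 and 11.1 and at 7.33, 1.12 and 1.09. None of 4 tested atrial markers passed the threshold. Myl4 was the 1 with a negative log2 fold change, and the other 3 had positive ones. The summed scaled intensity of the list, led by Nppa, was 10216 to 20516 in sham and 18087 to 63878 in tail-suspended hearts, and its part in Kcnj3 and Kcnj5 was not tested.

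Kcnj10, an inward rectifier of glial cells, had the lowest fitted difference of the tested members without passing. It was well above background on all 3 sham arrays at 8.72, 13.4 and 7 and on 1 tail-suspended array, where it read 5.64, 1.06 and 2.76. The log2 fold change of -1.88 had an interval from -3.28 to -0.48 (adjusted p = 0.0653 by limma). Kcnj10 entered the test through the sham arrays alone, so its interval and p-value add no support to the difference. The log2 fold change moved to -0.73 within row 1.

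Of the channels activated by calcium, sodium or pH, Kcnt1 was higher and Kcnn2 lower among 3 tested genes. The Kcnt1 stretch lies at chr2:25773734-25773763 on the plus strand of mm9 and is shown because Kcnt1 was the only member called higher by its first probe.
Kcnt1: aggatttgtgtgctcagataccagtcacca

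Kcnt1 encodes a potassium channel opened by intracellular sodium and known mainly from neurons. Its signal was dim, at 7.12, 9.63 and 8.72 in sham and 17.6, 20.8 and 20.5 in tail-suspended hearts. All 6 values were well above background, and the lowest tail-suspended value lay above the highest sham value. The sham hearts had a log2 level of -3.57 ± 0.22 (SD, n = 3), and the tail-suspended hearts one of -2.35 ± 0.14 (SD, n = 3). The difference was 1.22 (standard error 0.138, adjusted p = 0.00429 by limma), or 2.32-fold higher. The size depended on the background correction. With normexp, which compresses dim signals, the difference was 0.34 and missed the threshold (adjusted p = 0.0665 by limma). Within row 1 it was 1.06. Kcnt2, the related sodium-activated subunit, read 8.64, 10.8 and 10.2 in sham and 13.8, 11.7 and 16.4 in tail-suspended hearts. These groups were separate, with a log2 fold change of 0.49 that did not pass the threshold (adjusted p = 0.0653 by limma).

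Kcnn2 encodes a small-conductance channel opened by calcium and present in atria and ventricle. Its probe had 10 spots, whose mean read 310, 319 and 330 in sham and 248, 208 and 238 in tail-suspended hearts. All tail-suspended arrays lay below all sham arrays, and the difference was -0.47 (standard error 0.0977, adjusted p = 0.0228 by limma). It stayed past the threshold without tail-suspended array 1 and without tail-suspended array 2, and missed it with any other array left out (adjusted p up to 0.081 by limma). Kcnma1, the large-conductance calcium-activated pore, was well above background on 2 sham arrays and 1 tail-suspended array and was not tested.

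None of the 7 tandem-pore genes tested passed the threshold. Kcnk13, a background channel known from microglia, lay above sham on every tail-suspended array, at 22.7, 21.7 and 26.2 in sham and 31.1, 27 and 42.6 in tail-suspended hearts, with a log2 fold change of 0.49 (adjusted p = 0.0982 by limma). Kcnk4, a mechanosensitive member, lay below sham on every tail-suspended array, at 41.2, 38.2 and 41.6 and 32.1, 36.1 and 35.3, with a log2 fold change of -0.23 (adjusted p = 0.12 by limma). The 2 silent subunits tested, Kcng2 and Kcnv2, overlapped between groups. Kcns3, another silent subunit, was well above background on no sham array and on 2 tail-suspended arrays. It read 2.85, 3.16 and 3.99 in sham and 7.27, 3.26 and 7.32 in tail-suspended hearts, and these groups overlapped. By the group mean it lay 1.16-fold above the lowest signal well above background on the sham arrays. That mean includes an array not well above background, so the value is no firm bound, and no test was run.

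None of the 7 auxiliary subunits tested passed the threshold by the first probe. Kcne1l, a small membrane subunit that inhibits Kcnq1 channels, is shown by its probes because only the other one passed. They lie at chrX:138740361-138740390 and chrX:138739394-138739423 on the minus strand of mm9 and start 967 bases apart in the transcript.
Kcne1l, first probe: atctctacatcctactcatcatgatcttct
Kcne1l, other probe: cccaaatgcatctcttatattggttcagtt

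The first Kcne1l probe read 18.2, 18.7 and 19.4 in sham and 15.3, 14 and 16.9 in tail-suspended hearts. The other read 8.36, 14.3 and 11.4 in sham and 3.32, 6.25 and 5.44 in tail-suspended hearts, where it was well above background on 2 arrays. Both pairs of groups were separate, with tail-suspended hearts lower. The log2 fold change was -0.29 (adjusted p = 0.0793 by limma) on the first probe and -1.20 (adjusted p = 0.0325 by limma) on the other. Without single arrays the other probe passed in 2 of 6 fits, with adjusted p up to 0.104 (limma). That probe entered the test through the sham arrays alone, so its p-values add no support to the difference. Among the remaining auxiliary subunits Kcne3 had a log2 fold change of -0.48 (adjusted p = 0.128 by limma), Kcne4 of 0.46 (adjusted p = 0.187 by limma), Kcnmb1 of -0.22 (adjusted p = 0.482 by limma) and Kcnab1 of 0.09 (adjusted p = 0.763 by limma). Kcnmb4, an auxiliary subunit of large-conductance channels, was well above background on 1 sham and 2 tail-suspended arrays, at 4.96, 6.68 and 2.3 in sham and 3.92, 16.8 and 22 in tail-suspended hearts, and was not tested.

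More than 1 probe read 34 of the 94 genes, and 10 genes had more than 1 tested probe. The probes had the same direction in 7 of these and opposite directions in 3, Kcna7, Kcng2 and Kcnj11. No pair of probes passed the threshold in opposite directions.

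**Figure D5:**
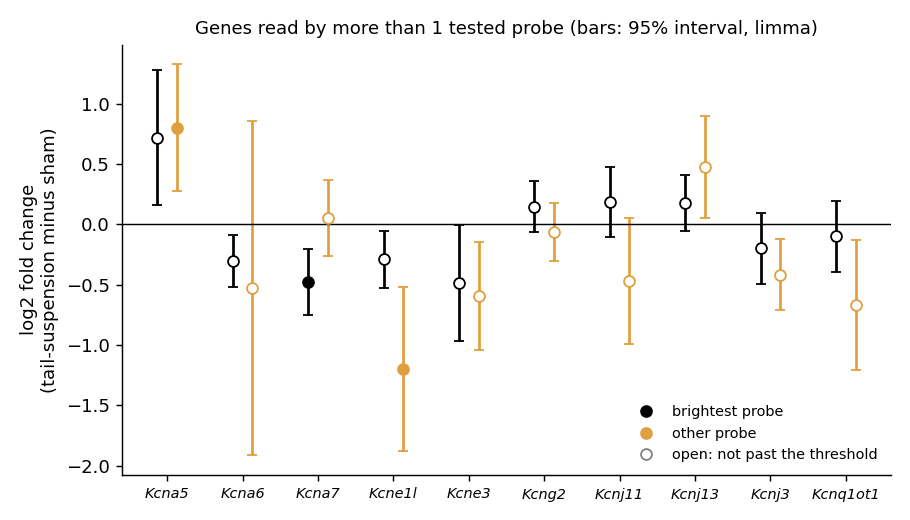
Log2 fold change of tail-suspended minus sham (vertical axis) with its 95% interval from limma for the 10 potassium channel genes with more than 1 tested probe; black marks the brightest probe, orange the other, and filled points passed an adjusted p of 0.05. Kcna5 and Kcne1l passed on the other probe and Kcna7 on the brightest one.

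Genes that work with these channels but carry other names were read in the same fit. Of 16 listed partner proteins 12 were tested, and 3 were higher and 3 lower. The called share was 50%, against 21.7% of all tested genes, and the median log2 fold change was 0.0048. The list was chosen with earlier results of these data known, so its share says nothing about partner proteins as a set. Akap5, which anchors protein kinase A near channels, read 84, 74.2 and 114 in sham and 6.65, 7.77 and 4.43 in tail-suspended hearts, a log2 difference of -3.87 (adjusted p = 0.00144 by limma). It was well above background on 3 sham arrays and on 2 tail-suspended arrays, and entered the test through sham. Lrrc38 and Lrrc52 belong to the leucine-rich auxiliary subunits of large-conductance channels. Lrrc38 was lower by a log2 fold change of -0.76 (adjusted p = 0.0147 by limma), whereas Lrrc52 was well above background on no sham array and was at least 3.94-fold higher (adjusted p = 0.00616 by limma). Rnf207, a RING finger protein linked to Kcnh2 channels, was lower by -0.61 (adjusted p = 0.0343 by limma). Dlg1, a scaffold that clusters Kv and Kir channels, was higher by 0.45 (adjusted p = 0.0263 by limma).

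Transcription factors known to act on cardiac potassium channel genes gave 15 tested genes of 17 listed, with 3 higher and 3 lower. The called share was 40%, against 21.7% of all tested genes, and the median log2 fold change was -0.014. This list too was chosen with earlier results known, so its share says nothing about these factors as a set. Klf15, an activator of Kcnip2, read 172, 107 and 188 in sham and 273, 304 and 299 in tail-suspended hearts, a log2 difference of 0.95 (adjusted p = 0.0284 by limma). Gata6 (0.78) and Tbx5 (0.56) were the other higher factors, and Gata4 (-0.52), Irx4 (-0.44) and Rest (-0.32) were lower. Irx5, a repressor of Kcnd2, had groups that overlapped, with a log2 fold change of -0.06. Of the 8 sodium pump subunits, which move potassium back into the cell, Atp1b2 was lower by -0.71 (adjusted p = 0.0348 by limma) and none was higher, a called share of 12.5% against the same 21.7%. With slide row as a block, tail-suspended array 1 alone is set against the sham arrays. The 13 called partner, factor and pump genes had log2 fold changes from -3.75 (Akap5) to 1.88 (Lrrc52) there. All 13 kept their direction, which adds no support because the fit rests on 1 tail-suspended array of the same data. With each array left out in turn, Akap5 and Lrrc52 stayed past the threshold in all 6 fits. Lrrc38 did so in 5 fits and the other 10 genes in at most 3. Akap5 and Lrrc52 each entered the test through 1 group alone, so their p-values add no support to their differences.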

How the data were processed

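Total RNA of 3 sham and 3 tail-suspended hearts was hybridised to 6 Agilent 1-colour arrays of 62976 spots, 1 mouse per array. Scanner files were deposited by the authors for every array, made per the labels with Agilent Feature Extraction 10.7.1.1, and hold a mean, a background and a processed intensity per spot. They also deposited 1 table of log2 values whose columns correlated above 0.999 with the log2 processed intensity and whose sorted columns differed by at most 0.000857, so quantile normalization is likely, and its base of centring is unknown (median 4.32 in each column). The study's methods name no array normalization.

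The log2 processed intensity was set against the 75th percentile of the non-control spots of each array, which lay between 302 and 376. Control spots and 146 to 212 outlier spots per array were left out, no spot was saturated, and spots of a probe were averaged. The flag for well above background was set for a probe where 50% or more of its spots carried it. Of the chosen probes, 91 had 1 spot and 3 had 10. The groups were compared with limma 3.58.1 (lmFit and eBayes, no covariate) in R 4.3.3. The fit was tested on simulated data. Background shares cover the brightest tested probe of each gene name that matched a symbol or synonym of the RefSeq table of GRCm38.p6, which was used for names only. The lower limits of fold changes set the mean of the brighter group against, per array, the higher of the lowest signal well above background and the signal of the probe.

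Some items are not reported here. Named are the other members past the threshold, the subunits of cardiac currents, 9 auxiliary subunits, members whose probes differed, called genes of the partner, transcription factor, sodium pump and clock lists, and cell type markers. Members, lists and this rule were chosen with earlier results of these data known, so the called share of a list is descriptive only. Kcna1, Kcna6, Kcne1l, Kcng2, Kcnh4, Kcnj10, Kcnk4, Kcnk13, Kcnma1, Kcns3, Kcnt2, Kcnv2 and Irx5 were added after their values were seen. No macrophage (1 of 5 higher), T cell (0 of 2), fibroblast (0 of 6), neutrophil (4 of 6 higher) or adipocyte (none tested) list was set against a member (10.5% of all tested genes were higher). The labels give both groups replicate numbers 1 to 3. Deviations from the group means of arrays of the same number correlated at -0.0198, -0.0176 and 0.0496, so the numbers were not taken to pair mice. Alternatives changed the scaling (quantile, a percentile over detected probes, the deposited log2 table), the background (normexp, offset 50), the filter (none, or all 6 arrays well above background), the outlier spots (kept), the spread model (array weights, or robust eBayes with a trend), the test (the methods' t-test), the block (replicate number or slide row), the probe (mean per gene), the minimum change (2-fold) and the arrays (each left out).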

Additional observations from a re-analysis of the deposited data

How the results depend on the processing

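The main comparison gave 1 higher and 5 lower potassium channel genes and 13 called partner, factor and pump genes. The 6 called members, Kcna5 and the called other probes of Kcna5, Kcne1l and Kcnj14 kept their direction under every alternative that gave them a value. Their groups did not overlap, so every fit on the same values had to keep the direction, which adds no support. Only alternatives that change the values, such as those of scaling or background, could have turned it. With the slide row as a block, uncalled members that turned direction included Kcnq1 and Kcnmb1, at log2 fold changes of 0.19 and 0.14. The count of higher members moved to 2 under the intensity trend with robust eBayes, 4 with array weights, 2 by the methods' t-test without adjustment and 0 with the slide row as a block. Leaving out each array in turn gave 1 to 3. The count of lower members moved to 2 without the filter on dim probes, 2 with Benjamini-Hochberg adjustment of the methods' t-test, 10 by the same test without adjustment, 2 with a 2-fold minimum and 0 with the slide row as a block. Leaving out each array in turn gave 2 to 5. The count of partner, factor and pump genes moved to 3 without the filter, 3 with the adjusted t-test of the methods, 2 with a 2-fold minimum and 1 with the slide row as a block. Leaving out each array in turn gave 3 to 9. With the replicate block the counts were 1 higher, 2 lower and 3 partner, factor and pump genes, where Kcnj8, Kcnn2 and Kcna7 had adjusted p of 0.0559, 0.0592 and 0.0503 (limma), and 2 of 6 arrays correlated best with their own number. Without the filter the number of tested probes goes from 28032 to 55681, and each left-out array removes a mouse, while the cause of the other moves was not tested. Over all tested probes the main counts of 3023 higher and 2683 lower became 2477 and 2634 under normexp and 2731 and 3068 under quantile normalization.

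Kcnt1 stayed past the threshold with each array left out, as did Kcnj15, which entered the test through the sham arrays alone. Kcnj8, Kcnn2 and Kcna7 passed in 2 of 6 such fits. Kcnt1 passed in 17 of 19 alternatives with adjusted p, Kcnj15 in 16 of 18, Kcnn2 in 12 of 19, Kcnj8 in 11 of 19 and Kcna7 in 10 of 19. Kcnt1 and Kcnj15 rest on dim signals, and Kcnt1 fell to a log2 fold change of 0.34 with the normexp correction. Kcnj14 and Kcnj10 rest on signals near background, where arrays give a bound.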
